A study of Mus musculus with 32 samples.

Results

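Prnp encodes the cellular prion protein, and it was 1 of 27566 genes or transcripts read on an Agilent mouse array. Its transcript was read by 1 of the 41174 non-control probes, the only probe that the glia files name Prnp (the motor neuron files name the same probe by its transcript). The gene was chosen by its transgenic-over-control ratios and its levels in control cells, so these are given below as a description, with no test. RNA came from cells cut by laser from the lumbar anterior horn of female mice, 500 cells per mouse, either motor neurons or the glial cells around them. TAU-P301L mice, which carry a mutant human tau (strain label B6D2F1-Tg(TAU-P301L), 16 weeks old), were compared with nontransgenic B6D2F1 littermates of the same age, in motor neurons (TAUmn) and in glia (TAUgl). SOD1-G93A mice, transgenic for a mutated human superoxide dismutase gene (B6SJL-Tg(SOD1-G93A)1Gur, 8 weeks old), were compared with nontransgenic B6SJL littermates, likewise in motor neurons (SODmn) and glia (SODgl). Each comparison held 4 littermate pairs, and each pair was hybridised to 2 arrays with the dyes exchanged, so the pair is the replicate (n = 4) and 32 arrays were used. Model, age and strain differ together, so differences between the models cannot be assigned to any one of them.

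The cellular prion protein is a glycoprotein held on the outer cell surface by a glycosylphosphatidylinositol (GPI) anchor. It binds copper through repeats in its flexible amino-terminal part, is shed and cleaved by proteases, and is abundant in neurons while also made by glia. Misfolding of this protein underlies the prion diseases. The labels name neither the tau line nor the promoter of its transgene. As background, the widely used P301L line JNPL3 expresses human tau from a cassette built on the mouse Prnp gene, with regulatory and untranslated Prnp sequence, whereas the 1Gur line carries human SOD1 under its own promoter. Whether the Prnp probe also reads RNA of a transgene was not tested, since no probe sequence was used here.

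The probe, A_51_P483280, is 60 bases long and is annotated to transcript NM_011170. The glia files place it at chr2:131629522-131629581 of build mm8. Which exon or untranslated region this is was not determined, because no mm8 annotation was used here. The probe occupies 1 spot per array and carried neither a saturation mark nor an outlier mark on any of the 32 arrays. It was well above background in both channels of every array except the control channel of 1 array, described next.

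The first array of SODmn pair 3 lay off its grid. Over all spots its green signal had a correlation of -0.01 with the mean of the other 31 arrays at the same position, and 0.61 when read 2 rows further on; the other 31 arrays reached 0.75 to 0.98 at their own position. Probe names on that array therefore do not belong to its spots as deposited. At the Prnp position it read 46.8 in the SOD1-G93A channel and 52.5 in the control channel, against 743 and 1765 on the other array of the same pair. The Prnp ratio and levels, the adjusted calls and the named list members in SODmn are given as deposited and with that array left out. Leaving it out leaves pair 3 with 1 array. Other results that include SODmn extracts are as deposited unless stated. Other arrays were weaker in part: the 4 arrays of scan 5 (SODgl pair 2 and TAUgl pair 1) carried outlier marks on 4.5% to 17.4% of spots, against at most 0.737% elsewhere. Motor neuron arrays were all in scans 1 and 2 and glia arrays all in scans 3 to 6, and the 2 sets were processed with different software versions. Cell type, scan and software therefore cannot be told apart.

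Cell identity was checked in the control extracts, where 40.3% of 13038 genes passed limma's test between motor neurons and glia (27.1% higher and 13.2% lower in motor neurons). With the off-grid array left out 6559 genes passed (4656 higher and 1903 lower), against 5257 as deposited (3538 and 1719). The marker counts and levels here are as deposited. Among motor neuron markers, 8 of 17 were higher in motor neurons and 2 were lower. Nefm, which encodes a neurofilament subunit, had a log2 level of 8.30 in control motor neurons and 6.70 in control glia, and the neurofilament gene Nefl 12.85 and 11.31. The acetylcholine-synthesising enzyme gene Chat, a defining marker, did not differ past the threshold, at 6.21 in motor neurons and 6.27 in glia (limma adjusted p = 0.403). Both levels were low and Chat was too dim to be tested in SODgl and TAUgl, so its reading says little about cell identity. The homeobox genes Lhx4 and Mnx1 were the 2 lower ones. Lhx4 stood at 6.78 in motor neurons and 7.88 in glia (limma adjusted p = 0.00153), opposite to the direction of a motor neuron marker. Mnx1, like Chat, was at low levels, 6.23 in motor neurons and 6.60 in glia, and was too dim to be tested in SODgl and TAUmn. Of interneuron markers, 7 of 15 were higher in motor neurons and 0 lower. Their median difference was 0.30, beside 0.28 for motor neuron markers, so these lists did not tell motor neurons from other neurons. Of astrocyte markers, 6 of 14 were lower in motor neurons and 0 higher, with Glul at 9.84 in motor neurons and 11.41 in glia. Of oligodendrocyte markers, 6 of 11 were lower and 0 higher, with Mag at 10.15 and 11.85. In bulk extracts, fewer cells of a type and less RNA per cell cannot be told apart.

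The 250 bases before the annotated Prnp start are shown as background (RefSeq, GRCm38.p6, chr2:131909678-131909927, plus strand). Whether the regulators described further on act there was not tested. Capitals mark the short motifs that were searched on both strands, and no base after the start is included.
Prnp upstream: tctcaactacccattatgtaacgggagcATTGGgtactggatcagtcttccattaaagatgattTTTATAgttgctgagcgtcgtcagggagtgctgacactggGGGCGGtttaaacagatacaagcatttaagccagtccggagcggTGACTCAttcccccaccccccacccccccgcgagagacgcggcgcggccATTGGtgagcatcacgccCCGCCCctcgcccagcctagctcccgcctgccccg
The GC box letters GGGCGG, a sequence bound by Sp1, occurred at 2 places (146 and 35 bases before the start), and 32.7% of 32851 promoters of this length hold them. The letters CCAAT occurred at 2 places on the minus strand (222 and 53 bases before the start, ATTGG as printed), as in 33.8% of promoters. The AP-1 letters TGACTCA occurred once, 102 bases before the start, as in 4.46% of promoters. The letters TATAAA occurred once on the minus strand, 186 bases before the start, as in 12.4% of promoters. None of these motifs overlap. GC content was 58.8%, against a median of 52.4% over all promoters. These are matches of letters and not measured binding.

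Prnp was higher in TAU-P301L motor neurons than in littermate motor neurons in all 4 pairs, as were 6.52% of tested genes. Its log2 ratio of transgenic over control was 1.23, 0.74, 0.96 and 1.41 in pairs 1 to 4. The mean was 1.08 ± 0.29 (SD, n = 4), a 2.12-fold difference as a geometric mean. All 8 arrays stood above 0, between 0.54 and 1.72. Pair 4 was the farthest apart between dye orientations, at 1.72 and 1.09. The order of the pairs differed between the dye orientations: pair 4 was highest on both, while the lowest was pair 3 on the first arrays and pair 2 on the dye-switch arrays.

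In TAU-P301L glia the gene was also higher in all 4 pairs, as were 8.88% of tested genes. Ratios were 1.02, 1.00, 0.93 and 0.60 in pairs 1 to 4, with a mean of 0.89 ± 0.19 (SD, n = 4), or 1.85-fold. Pair 4, whose arrays had the fewest probes well above background, was the lowest, and the other 3 lay between 0.93 and 1.02. The 8 arrays ranged from 0.25 to 1.80, and both ends of that range came from pair 1. The 2 arrays of this pair, from scan 5, had ratios correlated at -0.81 over all probes, and the mean of the 2 orientations stood close to the other pairs. The mean of the other 3 pairs was 0.84. Low agreement between dye orientations was not limited to this pair. Over all probes the correlation was -0.46, -0.15 and 0.18 in TAUgl pairs 2 to 4. It was 0.06, 0.08, -0.19 and 0.01 in TAUmn pairs 1 to 4. In SODgl it was -0.40, -0.61, 0.14 and 0.30, and the highest of all pairs was 0.54 in SODmn pair 4.

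The log ratios that the authors deposited with each array, turned to transgenic over control and put on the log2 scale, gave the same direction on all 16 TAU arrays. They ran between 0.64 and 1.86 in motor neurons and between 0.42 and 1.39 in glia. Means over 4 pairs from the deposited series matrix, which is rounded to 1 decimal in log10 units, were 1.16 in TAUmn and 0.96 in TAUgl.

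**Figure D1:**
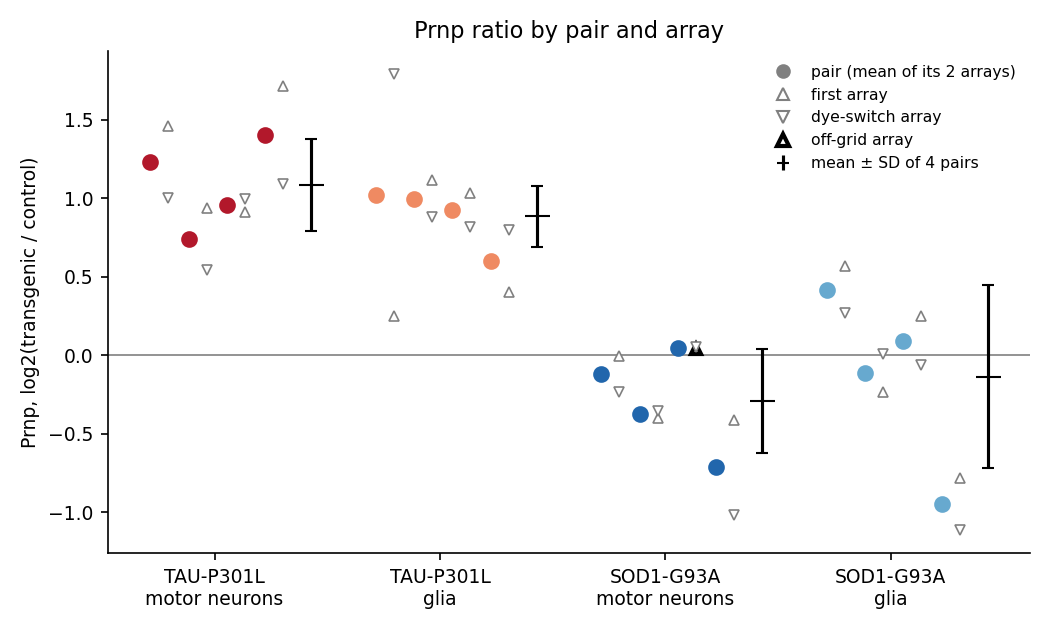
Log2 ratio of Prnp, transgenic over control, for the 4 pairs of each comparison (filled circles) with their 2 arrays (open triangles) and the mean ± SD over 4 pairs. All 8 TAU-P301L pairs lie between 0.60 and 1.41, and the 8 SOD1-G93A pairs between -0.95 and 0.42.

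SOD1-G93A tissue gave ratios on both sides of 0. In motor neurons they were -0.12, -0.38, 0.05 and -0.71 in pairs 1 to 4, a mean of -0.29 ± 0.33 (SD, n = 4). With the off-grid array left out, pair 3 stayed at 0.05 and the mean at -0.29 ± 0.33. Pair 4 was the lowest, and its 2 arrays read -0.41 and -1.02. In glia the ratios were 0.42, -0.11, 0.09 and -0.95, a mean of -0.14 ± 0.58 (SD, n = 4). Pair 4 was again the lowest, at -0.78 and -1.12 on its 2 arrays. Without that pair the mean in SODgl was 0.13, of the opposite sign, so the sign in SODgl rested on 1 pair.

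The lowest TAU-P301L pair, 0.60, was above the highest SOD1-G93A pair, 0.42. This is a description, since Prnp was chosen by these ratios and the share of all genes so separated was not computed. The same order held within each scan that held both models. In scan 1 the mean ratio was 1.18 in TAUmn and -0.33 in SODmn, and in scan 2 it was 0.99 in TAUmn and -0.25 in SODmn. In scan 5 it was 1.02 in TAUgl and -0.11 in SODgl, from 1 pair each, and in scan 6 it was 1.00 in TAUgl and 0.42 in SODgl, also from 1 pair each. The remaining glia pairs were scanned apart, with means of 0.76 in TAUgl (scan 4) and -0.43 in SODgl (scan 3).

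Among all tested genes, the mean Prnp ratio was the highest of 11655 in TAUmn. The next were B230311B06Rik at 0.83 ± 1.03 (SD, n = 4) and LOC627905 at 0.73 ± 0.50 (n = 3). In TAUgl it was the second highest of 8912. Uchl1, a neuronal ubiquitin hydrolase, was above it at 0.93 ± 0.34 (n = 3, because pair values with a missing array were dropped), and LOC627905 below it at 0.66 ± 0.09 (n = 4). Of the 8406 genes tested in both, 75 (0.892%) were above 0 in all 8 TAU pairs. By its lowest TAU pair, Prnp at 0.60 was the highest, and 1 of 8406 genes (0.0119%), Prnp itself, reached that value. The next were Dap3 at 0.25, Ndufc2 at 0.18 and Ppt1 at 0.18. In SODmn Prnp was 13105th of 13296 from the top, between Tuba3a and Rpl5, each at -0.29. In SODgl it was 9348th of 10450, between Sult2b1 and Bnip3, each at -0.14.

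**Figure D2:**
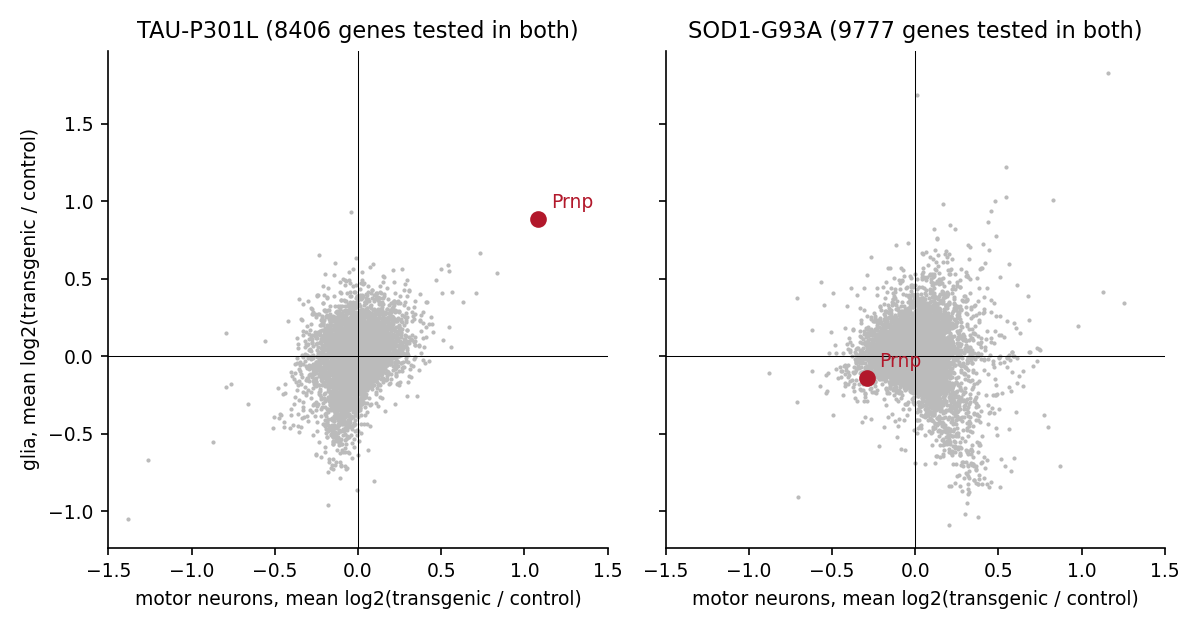
Mean log2 ratio of transgenic over control in motor neurons (horizontal) and glia (vertical) for every gene tested in both, in TAU-P301L (left, 8406 genes) and SOD1-G93A (right, 9777 genes). Prnp (red) lies at 1.08 and 0.89 in TAU-P301L, apart from the other genes, and at -0.29 and -0.14 in SOD1-G93A, within them.

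As a whole, these comparisons gave few calls. By limma with Benjamini-Hochberg adjustment, 0 of 11655 genes passed 0.05 in TAUmn and 0 of 8912 in TAUgl (0% each). At an unadjusted p under 0.05 there were 489 genes (4.2%) in TAUmn and 1234 (13.8%) in TAUgl. In SODmn 1 of 13296 passed (0.00752%), Sel1l3, which was lower at -0.23 (limma adjusted p = 0.0193), also with the off-grid array left out. In SODgl 8 of 10450 passed (0.0766%; 5 higher and 3 lower), and 0 with that array left out. Both counts were 0 with Agilent processed signals, and leaving out each pair gave 0 to 8 calls in SODmn (0 without pair 1, 8 without pair 2) and 0 to 89 in SODgl (89 without pair 1). The same step gave 0 to 14 calls in TAUmn (14 without pair 3) and 0 to 1 in TAUgl. At an unadjusted p under 0.05 the SOD1 comparisons had 1413 genes (10.6%) in SODmn and 1694 (16.2%) in SODgl. Each of the 4 differences, between cell types or between models, gave 0 calls (0%), although SODmn minus SODgl gave 237 without SODmn pair 1. At an unadjusted p under 0.05 they held 14.9% (SODmn minus SODgl), 5.64% (TAUmn minus TAUgl), 11.3% (TAUmn minus SODmn) and 6.89% (TAUgl minus SODgl) of tested genes. Because Prnp was chosen for its ratios, nothing is read from these counts about it.

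The mouse counterparts of the transgenes were read as well. Mapt, the mouse tau gene, averaged -0.10 ± 0.35 in TAUmn and 0.08 ± 0.76 in TAUgl (SD, n = 4 each; limma adjusted p = 0.996 and 0.928). In TAUgl its pairs ran between -0.96 and 0.82. Sod1 averaged -0.08 ± 0.16 in SODmn (-0.11 without the off-grid array) and -0.11 ± 0.30 in SODgl (limma adjusted p = 0.761 and 0.649). Whether these mouse probes read the human transgenes was not tested, so they do not check the labels. Mapt stood at 0.73 ± 0.19 in SODgl, above 0 in all 4 pairs (as were 9.53% of tested genes), and did not pass (limma adjusted p = 0.0969).

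Single-channel levels give each side of the ratio. In TAUmn the log2 level of Prnp was 11.53, 11.31, 11.52 and 11.48 in the TAU-P301L extracts of pairs 1 to 4, against 10.30, 10.57, 10.56 and 10.08 in their littermates. The means were 11.46 ± 0.10 in TAU-P301L and 10.38 ± 0.24 in littermates (SD, n = 4 each), and the groups did not overlap. How many of all genes have levels so separated was not computed. In TAUgl the levels were 11.28, 11.06, 11.28 and 10.12 in TAU-P301L and 10.26, 10.06, 10.36 and 9.52 in littermates. The means were 10.93 ± 0.55 and 10.05 ± 0.37, and the groups overlapped only through pair 4, which was the lowest on both sides.

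In SOD1-G93A tissue the levels overlapped in both cell types. In SODmn they were 10.59, 10.30, 8.17 and 9.60 in SOD1-G93A, against 10.70, 10.68, 8.12 and 10.31 in littermates. Pair 3 was low on both sides through the off-grid array, and from its other array alone it read 10.28 in SOD1-G93A and 10.23 in the littermate. With that array left out the means were 10.19 ± 0.42 in SOD1-G93A and 10.48 ± 0.25 in littermates (SD, n = 4 each), against 9.66 ± 1.08 and 9.95 ± 1.24 as deposited. In SODgl the levels were 10.14, 10.02, 10.24 and 8.79 in SOD1-G93A and 9.72, 10.13, 10.14 and 9.74 in littermates. The SOD1-G93A extract of pair 4 stood apart from the other 3 at 8.79.

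**Figure D3:**
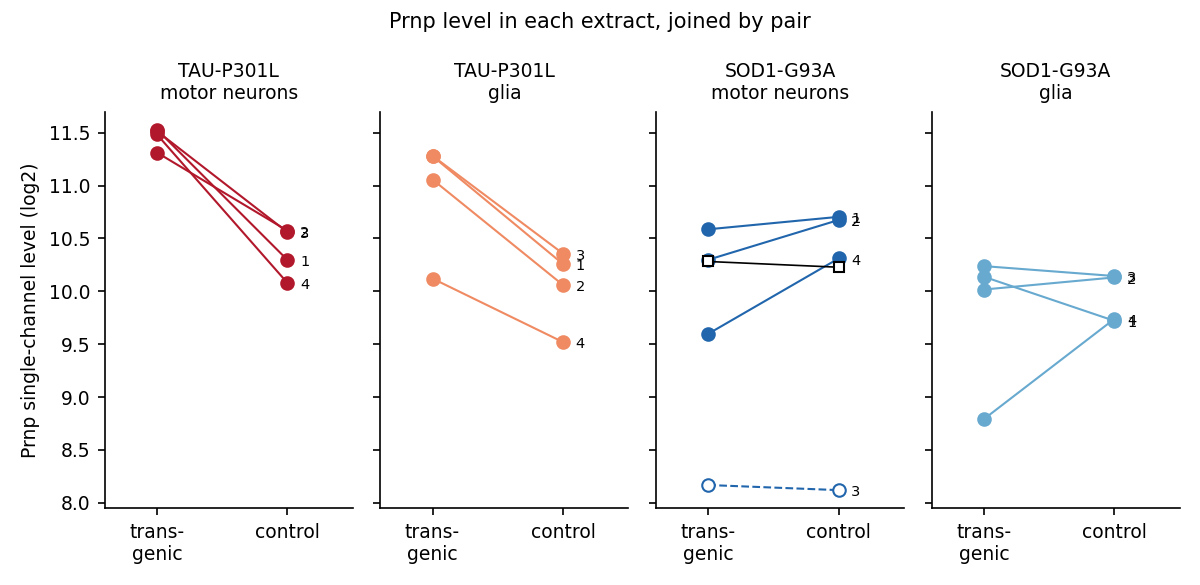
Single-channel log2 level of Prnp in each extract, transgenic left and control right, with lines joining the extracts of a pair and numbers naming the pair. The TAU-P301L motor neuron extracts sit between 11.31 and 11.53, above all 4 controls; the dashed line is SODmn pair 3 as deposited and the black squares are the same pair from its other array alone.

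Control motor neurons and control glia held Prnp at overlapping levels. Over 8 extracts each, the level was 10.17 ± 0.85 in motor neurons (lowest 8.12, median 10.44, highest 10.70) and 9.99 ± 0.30 in glia (9.52, 10.10 and 10.36), a difference of 0.17. With the off-grid array left out, motor neurons averaged 10.43 ± 0.23 and the difference was 0.44, with the ranges still overlapping. In the TAU colony the difference was 0.33, and in the SOD1 colony it was 0.02 as deposited and 0.55 with the array left out. The difference was above 0 under each of the 27 settings tried, between 0.02 and 1.08, and its size moved with the scaling. Many of these settings only left out a pair. As deposited, 61.3% of 13038 tested genes were above 0, so this sign is not particular to Prnp. The Prnp difference exceeded that of 60.1% of tested genes, or 82.8% with the off-grid array left out. When channel medians were made equal in place of their average-intensity distributions, the Prnp difference was 1.08 and the median over all genes 0.24, against 0.10 as reported. That scaling also turned the split of calls to 87% higher in motor neurons, against 67.3% as reported.

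Of the close relatives of Prnp, only Sprn could be followed. Sprn encodes Shadoo, a GPI-anchored protein of the nervous system, and it averaged 0.03 ± 0.18 in TAUmn and 0.08 ± 0.11 in TAUgl (SD, n = 4 each; limma adjusted p = 0.996 and 0.858). In SODmn it averaged 0.03 ± 0.28 (0.08 without the off-grid array) and in SODgl -0.00 ± 0.38. Between control cells Sprn was higher in motor neurons, at 7.91 against 7.25 in glia, a difference of 0.66 with an SE of 0.22 (limma adjusted p = 0.0249). Prnd encodes Doppel, a relative made mainly in testis, and it was well above background in 1 of 8 extracts in SODmn and in TAUgl and in 0 of 8 in TAUmn and SODgl, so no ratio is given for it.

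Of the 5 annotated genes on each side of Prnp on its chromosome, 4 had probes: Erv3, Prnd, Rassf2 and Slc23a2. Slc23a2 passed the filter on dim probes in no comparison and has no ratio here. Rassf2, a Ras-association domain gene next to Prnd, averaged -0.03 ± 0.26 in TAUmn and -0.04 ± 0.05 in TAUgl (SD, n = 4 each). Erv3 averaged -0.05 ± 0.15 in TAUmn and 0.04 ± 0.04 in TAUgl. Neither passed the test in any comparison in which it was tested. Erv3 was higher in control motor neurons, at 6.41 against 6.02 in glia (limma adjusted p = 0.000699), and Rassf2 stood at 6.81 in motor neurons and 6.70 in glia (limma adjusted p = 0.540). Both Erv3 levels were low, and it was too dim to be tested in SODgl.

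In all, 7 lists of genes tied to the prion protein were followed, the family list with Sprn among them, and 0 of their tested members passed in any transgenic comparison (0 of 89 in TAUmn, 0 of 65 in TAUgl, 0 of 96 in SODmn and 0 of 74 in SODgl, the SODmn count being the same without the off-grid array). These counts stand beside background shares of 0%, 0%, 0.00752% and 0.0766%. At an unadjusted p under 0.05 there were 6 members in TAUmn, 9 in TAUgl, 11 in SODmn and 8 in SODgl, beside 4.2%, 13.8%, 10.6% and 16.2% of all tested genes. No list member had a mean ratio above that of Prnp in TAUmn or TAUgl. Prnp was chosen by these ratios, and few tested genes reached its mean: 1 of 11655 in TAUmn and 2 of 8912 in TAUgl, itself included. Nothing is therefore read from this about the lists. The members with the smallest p of each list are named below with values only.

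**Figure D4:**
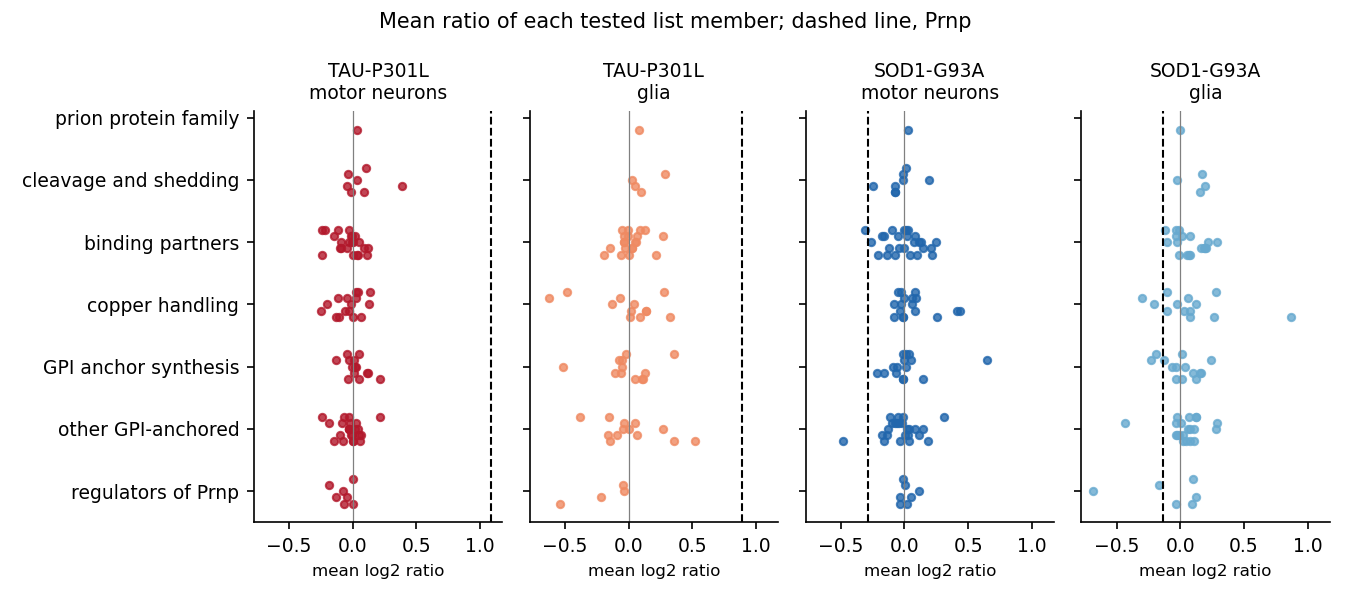
Mean log2 ratio of transgenic over control for each tested member of the 7 lists in the 4 comparisons, with the Prnp mean as a dashed line. In TAU-P301L motor neurons and glia every member lies left of the Prnp lines at 1.08 and 0.89, as do nearly all tested genes.

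The cleavage and shedding list holds the proteases that cut the prion protein and their inhibitor. Its median ratio was 0.04 over 7 tested members in TAUmn and 0.08 over 4 in TAUgl, beside medians over all genes of -0.01 and 0.00. Timp3, an inhibitor of the ADAM proteases, read 1.01, 0.18, 0.21 and 0.15 in TAUmn and 0.10, 0.34, 0.37 and 0.31 in TAUgl. It was above 0 in all 8 TAU pairs and passed in neither comparison (limma adjusted p = 0.996 and 0.340). The calpains Capn2, at 0.10 ± 0.09 in TAUmn, and Capn1, at 0.03 ± 0.08 in TAUgl, had the next smallest p. In SODmn they were Mmp9, a secreted metalloproteinase, at -0.25 ± 0.29 (-0.23 without the off-grid array), and Capn2 at -0.08 ± 0.13 (-0.08). In SODgl they were Bace1, the beta-secretase, at 0.19 ± 0.20 (n = 3) and Timp3 at 0.17 ± 0.20. Between control cells 2 of 7 were higher in motor neurons, beside 27.1% of all tested genes: Mmp9, at 6.49 against 5.90 in glia, and Adam8, at 6.46 against 6.18.

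Binding partners and receptors had medians of -0.01 over 23 members in TAUmn and -0.00 over 20 in TAUgl. Mgrn1, a ubiquitin ligase that interacts with the prion protein, read -0.37, -0.25, -0.17 and -0.17 in TAUmn, below 0 in all 4 pairs, as were 6.12% of tested genes. The sorting receptor Sort1 averaged -0.15 ± 0.17 there. In TAUgl Dpp6, an auxiliary protein of potassium channels, read 0.26, 0.16, 0.08 and 0.34, and the amyloid precursor relative Aplp1 averaged -0.19 ± 0.28. None of these passed. In SODmn the astrocyte filament gene Gfap averaged 0.22 ± 0.21 (0.29 without the off-grid array) and the raft protein gene Flot1 averaged -0.26 ± 0.26 (-0.35). In SODgl Sort1 averaged 0.20 ± 0.10 and the chaperonin gene Hspd1 0.22 ± 0.31. Between control cells 11 of 26 were higher in motor neurons and 1 was lower, beside 27.1% and 13.2% of all tested genes. Flot1 had a level of 7.74 in motor neurons and 6.84 in glia, and the endoplasmic reticulum chaperone gene Hspa5 7.39 and 6.45. Dpp6 stood at 7.65 and 6.76, and Flot2 at 6.82 and 6.34. The member that was lower was Aplp1, at 8.92 in motor neurons and 9.51 in glia.

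Copper handling genes had medians of -0.02 over 16 members in TAUmn and 0.03 over 12 in TAUgl. Steap3, a metalloreductase, averaged 0.13 ± 0.12 and the metallothionein gene Mt3 0.13 ± 0.13 in TAUmn, each above 0 in 4 pairs. In TAUgl Sod1 averaged 0.28 ± 0.17, above 0 in 4 pairs, and the metallothionein gene Mt1 -0.62 ± 0.56, below 0 in 3. Cox17, which carries copper to cytochrome c oxidase, read 0.66, 0.06, -1.06 and 2.09 in SODmn, a mean of 0.44 ± 1.31 (SD, n = 4). With the off-grid array left out its pair 3 read -1.84 and the mean was 0.24 ± 1.63. In SODgl it read 0.17, 1.06, 0.38 and 1.85, all above 0. Steap2 averaged -0.05 ± 0.12 in SODmn (0.02 without the off-grid array), and the copper pump gene Atp7b 0.26 ± 0.18 in SODgl. Between control cells 3 of 16 were higher in motor neurons and 3 were lower, beside 27.1% and 13.2% of all tested genes. Cox17 stood at 8.42 in motor neurons and 7.35 in glia, and Sco1, its partner in oxidase assembly, at 6.43 and 6.05. Mt1 was lower, at 8.72 in motor neurons and 10.09 in glia, as was Steap3, at 6.17 and 6.73.

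Genes that build and attach the GPI anchor had medians of 0.02 over 14 members in TAUmn and -0.04 over 12 in TAUgl. Pigp, a subunit of the enzyme that begins anchor synthesis, read 0.52, 0.28, 0.29 and 0.35 in TAUgl, above 0 in all 4 pairs and not past the test (limma adjusted p = 0.132). It read -0.01, 0.33, 0.04 and 0.49 in TAUmn. Subunits of the same enzyme came next, Pigq at 0.12 ± 0.12 in TAUmn and Pigc at 0.13 ± 0.21 in TAUgl. In SODmn Pigq averaged -0.16 ± 0.18 (-0.13 without the off-grid array) and the mannosyltransferase gene Pigz -0.21 ± 0.29 (-0.31). In SODgl the mannosyltransferase gene Pigm averaged -0.23 ± 0.07 and the transamidase subunit gene Pigs 0.24 ± 0.22. Between control cells 4 of 17 were higher in motor neurons and 3 were lower, beside 27.1% and 13.2% of all tested genes. Pigp stood at 7.42 in motor neurons and 6.90 in glia, Pgap3 at 6.34 and 6.02, and Dpm1 at 7.13 and 6.63, while Dpm2 was lower at 7.15 and 7.57.

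Other GPI-anchored surface proteins of neural cells share the attachment of the prion protein. Their medians were -0.02 over 23 members in TAUmn and -0.04 over 13 in TAUgl. Thy1, a neuronal surface antigen, averaged 0.52 ± 0.15 in TAUgl, above 0 in the 3 pairs measured (limma adjusted p = 0.222; pair 3 was dropped for a missing array). The adhesion protein gene Negr1 averaged -0.38 ± 0.23 in TAUgl and -0.19 ± 0.32 in TAUmn, and the cadherin gene Cdh13 -0.10 ± 0.13 in TAUmn. In SODmn the complement inhibitor gene Cd59a averaged -0.17 ± 0.17 (-0.26 without the off-grid array) and Cd24a -0.48 ± 0.26 (-0.57). In SODgl Negr1 averaged -0.43 ± 0.09 and the Nogo receptor relative Rtn4rl2 0.12 ± 0.11. Between control cells 7 of 24 were higher in motor neurons and 2 were lower, beside 27.1% and 13.2% of all tested genes. Cd24a stood at 8.56 in motor neurons and 6.93 in glia, Cdh13 at 6.97 and 6.31, and Cd59a at 6.73 and 6.28, while the axon guidance gene Rgma was lower at 7.59 and 8.43.

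Reported regulators of Prnp transcription had medians of -0.07 over 7 members in TAUmn and -0.13 over 4 in TAUgl. The stress sensor gene Atf6 averaged -0.19 ± 0.24 and the metal-responsive factor gene Mtf1 -0.13 ± 0.18 in TAUmn. In TAUgl the heat shock factor gene Hsf1 averaged -0.54 ± 0.56 (n = 3, pair 3 dropped) and Trp53 -0.22 ± 0.24. In SODmn Yy1 averaged -0.04 ± 0.11 (-0.04 without the off-grid array) and Mtf1 -0.04 ± 0.15 (-0.01). In SODgl Hsf1 averaged -0.69 ± 0.35, below 0 in all 4 pairs, as were 9.59% of tested genes (limma adjusted p = 0.0980), and Mtf1 0.13 ± 0.07. Between control cells Sp1, which binds GC boxes such as those marked in the sequence above, was higher in motor neurons at 6.49 against 6.15 in glia, and Hsf1 was lower at 10.76 against 12.12, the calls being 1 of 7 members each way beside 27.1% and 13.2% of all tested genes. With the off-grid array left out, each call between control cells in these lists was made again, except for 1 of the 7 higher members of the other GPI-anchored proteins, of which 6 were.

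Genes whose ratios most resembled that of Prnp over the 16 pairs were sought among the 5745 measured in all of them. The highest Pearson correlations were those of Cpsf3, a subunit of the messenger RNA cleavage complex (0.84), Pmvk, an enzyme of the mevalonate pathway (0.84), Mrps33 (0.83), Bet1 (0.83) and Adgrb3 (0.83). Hspa13, Tmem29, Chchd7, Eif3h and Hcfc1r1 followed at 0.83 to 0.80. In TAUmn and TAUgl all 10 had smaller means than Prnp, as had nearly all tested genes. In SODmn Pmvk lay farther below 0 than Prnp at -0.29. Pmvk averaged 0.33 in TAUmn, 0.22 in TAUgl, -0.53 in SODmn and -0.11 in SODgl. The lowest correlations were those of Med25 (-0.89), Ankrd13b (-0.87), Gtf2f1 (-0.87), Olfr30 (-0.83) and Zbtb4 (-0.83). With the off-grid array left out the correlation was 0.83 for Cpsf3, 0.84 for Pmvk and -0.87 for Med25. Pairs of a comparison share a model and a cell type, and after each comparison's mean was removed the correlation was 0.73 for Pmvk, 0.56 for Cpsf3 and -0.83 for Med25. Levels over the 16 control extracts most resembled that of Prnp in Snap47 (0.94), Rtl8b (0.93), Pptc7 (0.92), Vdac1 (0.92) and Nfe2l1 (0.92). These rested largely on the off-grid array, since with it left out they were 0.74, 0.75, 0.79, 0.74 and 0.65.

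The marker lists were read beside Prnp as sums of single-channel signal on the linear scale. In TAUgl, 13 of 14 tested astrocyte markers and 9 of 11 oligodendrocyte markers had a mean ratio below 0, as had 49.1% of all tested genes. The summed signal of the astrocyte markers lay between 12900 and 15800 in the TAU-P301L extracts and between 13300 and 21700 in littermates. That of the oligodendrocyte markers lay between 7190 and 17500 in TAU-P301L and between 12500 and 20300 in littermates, so the ranges overlapped for both lists. Motor neuron markers in TAUgl had 5 of 14 below 0, with sums of 6900 to 12500 in TAU-P301L and 5520 to 11600 in littermates. In TAUmn 8 of 14 astrocyte, 6 of 10 oligodendrocyte and 5 of 15 motor neuron markers were below 0, as were 53.5% of all tested genes. Both tested red cell genes were below 0 in TAUmn and TAUgl. Their sums in TAUmn were 224 to 429 in TAU-P301L and 472 to 986 in littermates, ranges that did not overlap. How many of all genes have ranges so separated was not computed. In TAUgl the red cell sums overlapped, at 390 to 513 and 500 to 891. In SODmn as deposited 5 of 15 astrocyte, 1 of 12 oligodendrocyte and 12 of 18 motor neuron markers were below 0, as were 50% of all tested genes. In SODgl these were 3 of 14, 3 of 12 and 7 of 13, beside 43.2%. The sums of these 3 lists overlapped between SOD1-G93A and littermates in both cell types. None of these markers passed the test, and their part in the Prnp ratio was not tested.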

How the data were processed

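Per the file headers, the authors' scanner software was Agilent Feature Extraction, version 8.5.1.1 on motor neuron arrays and 9.5.1.1 on glia arrays; the submitters' processing notes name only 8.5.1.1. The deposited spot values are linear intensity and, for each spot, a log10 ratio (red over green). In the series matrix the authors give 1 log10 ratio per spot; it followed the scanner ratio, turned by dye to transgenic over control, with correlations of 0.982 to 0.999.

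From there, mean intensity was corrected with normexp (offset 50) and log2 ratios were normalized by loess within each array in limma 3.58.1 (R 4.3.3). Spots with an outlier mark were left out. The 2 arrays of a pair were averaged, and a pair lacking either was missing. The brightest probe stood for its gene, which was tested if 4 or more of 8 extracts were well above background on both their arrays. The 16 pairs entered 1 fit over the whole table, with Benjamini-Hochberg adjustment at 0.05. Single-channel log2 levels used Aquantile scaling, and the 8 control motor neuron extracts were set against the 8 control glia extracts with colony as a covariate. The number of arrays limits the precision, and both fits were tested on simulated data. Prnp and the gene lists were chosen with earlier results of these data known. Named genes are Prnp, its relatives, the mouse counterparts of the transgenes, its neighbours, the list members that passed (up to 4) or had the 2 smallest p, markers, and those most like Prnp or next to it in order. Scans were taken from the file headers. The alternatives tried were a normexp offset of 16, Agilent processed signals, no background correction, median centring, outlier marks kept, other filters and probe rules, single dye orientations, scan and replicate blocks, each comparison alone, other channel scalings and each pair left out. The off-grid array left out or read 2 rows on, another variance rule and scan 5 left out were added after seeing the data.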

Additional observations from a re-analysis of the deposited data

Results flagged for a closer look

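The values of 78 groups were taken for a check for a value far from the other 3. Groups lacking a pair value, such as Bace1 in SODgl and Thy1 and Hsf1 in TAUgl, could not be checked. In a checked group chance gives such a value about 1 time in 20, and 5 values stood apart. The Prnp level of SODmn control pair 3, 8.12, is the one that the off-grid array sets; from its other array alone it was 10.23. The Prnp level of the SOD1-G93A extract of SODgl pair 4, 8.79, lay below the other 3 at 10.02 to 10.24, and its ratio was low on both arrays. Timp3 was high in TAUmn pair 1 at 1.01, against 0.15 to 0.21 in the other pairs. Steap2 was low in SODmn pair 3 at -0.23, and 0.04 with the off-grid array left out. Hspd1 was low in SODgl pair 4 at -0.24.

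The named genes were searched for differences between groups with every pair on opposite sides of 0. Between cell types of the SOD1-G93A mice 2 anchor genes showed this, and neither passed limma's test of the difference. The share of the 9777 genes tested in both cell types with this pattern was not computed. Nothing is therefore read from it about anchor genes. Pigs averaged -0.09 in SODmn (-0.12 without the off-grid array) and 0.24 in SODgl, a difference of -0.33. Pigc averaged -0.06 in SODmn (-0.09 without that array) and 0.16 in SODgl, a difference of -0.23.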

How the results depend on the processing

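The Prnp ratio kept its sign in TAUmn (0.91 to 1.26 over 17 alternatives), TAUgl (0.70 to 1.25 over 19) and SODmn (-0.61 to -0.15 over 17). With median centring in place of loess it was 1.25 in TAUgl. In SODgl it turned positive with median centring (0.18) and within scan 6 (0.42, 1 pair), and leaving out each pair gave -0.32 to 0.13. The Prnp difference between control motor neurons and glia was 1.08 with channel medians set equal. The cause of these changes was not tested.

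Counts of calls were unstable. In SODmn (1 as reported) 0 genes passed with an offset of 16, Agilent processed signals, detection in all 8 extracts, the mean over all probes, the replicate block, the 4 pairs alone, the off-grid array read 2 rows on, or variance shared over tested genes, and 39 without background correction. In SODgl (8 as reported) 0 passed with processed signals, no background correction, median centring, no filter, the mean over all probes, the 4 pairs alone, the off-grid array left out or read 2 rows on, variance over tested genes, or without scan 5; 4 passed with detection in all 8 extracts, 15 with outlier marks kept and 25 with the replicate block. In TAUgl 2 passed without scan 5. For the differences, SODmn minus SODgl gave 52 with detection in all 8 extracts, TAUmn minus SODmn gave 9 without background correction, 4 with the off-grid array left out and 3 with it read 2 rows on, and TAUmn minus TAUgl gave 1 without scan 5, against 0 for each as reported. Leaving out each pair gave 0 to 8 in SODmn, 0 to 89 in SODgl (89 without pair 1), 0 to 14 in TAUmn (14 without pair 3), 0 to 1 in TAUgl, 0 to 237 in SODmn minus SODgl (237 without SODmn pair 1), 0 to 5 in TAUmn minus SODmn, and 0 to 1 in TAUmn minus TAUgl and in TAUgl minus SODgl. Control motor neurons against glia gave 1612 with detection in all 8 extracts, 999 in the SOD1 colony alone and 2994 in the TAU colony alone.

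Of 66 values of named genes, 0 crossed the threshold in 1094 recomputed values and 46 of these changed sign. With an offset of 16 Rassf2 was -0.00062 in SODmn and 0.0015 in TAUmn. With processed signals, Sprn was -0.073, Steap2 0.035 and Rassf2 -0.099 in SODmn, Erv3 0.015 and Rassf2 0.064 in TAUmn, and Capn1 -0.042, Erv3 -0.088 and Rassf2 0.093 in TAUgl. Without background correction Yy1 was 0.013 and Mapt 0.040 in SODmn. With median centring, Sprn was -0.213, Steap2 0.012, Mtf1 0.018 and Erv3 0.0245 in SODmn, Sprn 0.087, Sod1 0.405 and Rassf2 0.041 in SODgl, and Hsf1 0.045, Aplp1 0.119, Trp53 0.085 and Rassf2 0.042 in TAUgl. With the mean over all probes Sprn was -0.016 in SODmn and -0.0032 in TAUmn. Steap2 was 0.017 in SODmn with the off-grid array left out or read 2 rows on, and Rassf2 was -0.0084 in the second reading. Without scan 5 Sod1 was 0.0047 and Rassf2 0.061 in SODgl. Leaving out each pair gave -0.082 to 0.0022 for Yy1, -0.054 to 0.069 for Rassf2, -0.0645 to 0.132 for Sprn, -0.180 to 0.034 for Mapt and -0.113 to 0.937 for Cox17 in SODmn. It gave -0.240 to 0.0047 for Sod1, -0.147 to 0.061 for Rassf2 and -0.099 to 0.180 for Sprn in SODgl, -0.245 to 0.041 for Mapt, -0.107 to 0.094 for Rassf2 and -0.041 to 0.099 for Sprn in TAUmn, and -0.168 to 0.426 for Mapt in TAUgl.

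Same-numbered pairs of motor neurons and glia did not deviate together in every case (r over 5745 genes of -0.12 to 0.25 in SOD1-G93A and 0.08 to 0.30 in TAU-P301L), and 1 of 4 and 3 of 4 motor neuron pairs were most like the glia pair of their own number, so the numbers were not used as pairs. Signal over background limits Prnd, which no ratio could be given for.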
